A study of Mus musculus with 32 samples.

Results

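The genes described here encode the machinery that copies DNA, from the complex that marks replication origins to the ligase that joins the fragments of the lagging strand. There were 40 of them, listed by gene name with no filter on their expression, though earlier results of these data were known. All 40 were found among the 24890 gene symbols of the deposited count and TPM tables. They were followed in E14 mouse embryonic stem cells, a wild-type line on gelatin, in serum medium that for both arms held LIF and 2 inhibitors, CHIR99021 of GSK3 and PD0325901 of MEK. The NrESC arm received in addition 10 µM T0901317, which activates the liver X receptors LXRα and LXRβ, and the ESC arm was its control at the same passage. Polyadenylated RNA was sequenced at passages 0, 2, 4, 6, 8, 10, 12 and 14, with 2 libraries per arm and passage, 16 per arm and 32 in all. The study uses 1 cell line. The labels call the NrESC libraries of passage 0 treated without saying for how long, nor do they tie the 2 libraries of an arm and passage to different cultures. The p-values at a single passage therefore measure only the spread between these libraries. The same holds for comparisons among passages that take each library singly.

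Replication starts when the origin recognition complex (ORC), with Cdc6 and Cdt1, loads the MCM2-7 ring onto DNA in G1 phase. In S phase Cdc45 and the GINS complex bind the ring and turn it into the active helicase, primase makes short RNA primers, and polymerases epsilon and delta extend them, held to the template by the sliding clamp PCNA. Many of these genes are known targets of E2F transcription factors, which bind promoters at the passage from G1 into S phase. Mouse embryonic stem cells are known for a short G1 phase and a large share of cells in S phase. In bulk RNA, fewer cells in S phase and less RNA of these genes per cell cannot be told apart.

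Libraries held 24989652 to 50463489 rounded counts. All 10 embryonic stem cell markers of the list used, Pou5f1, Sox2 and Nanog among them, were expressed, with a summed level of 10216 to 12754.5 TPM in NrESC libraries and 9568 to 11074 TPM in ESC libraries. The sum hides opposite changes. In the mean of the 8 passages, tested as described below, 5 of the 10 were lower in NrESC and 3 higher, against 27.2% and 28.3% of all genes tested. Nanog, Sox2 and Sall4 were called lower, and Dppa5a higher, at 8 of 8 passages. Fibroblast markers summed to 9.86 to 22.0 TPM in NrESC and 8.80 to 17.2 TPM in ESC, and 5 of the 10 (Col3a1, Postn, Dcn, Lum and Fap) were at 0 in most libraries. Both NrESC libraries of passage 8 lay away from the others, and values with and without that passage are given below.

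Promoter sequence was looked at because E2F binding words are what many replication genes are known to share. RefSeq promoter windows (GRCm38.p6, from 250 bases before to 50 bases after a start site) were matched by symbol for 33 of the 40 genes, in 41 windows. The words TTTCCCGC, TTTGGCGC, TTTCGCGC and TTTGCCGC were searched on both strands, and overlapping matches were counted separately. At least 1 of them lay in a window of 15 of the 33 genes (45.5%), against 2.60% of all 27025 genes with a window and 4.56% of the 11722 that were tested here. The 15 genes were Orc1, Orc3, Cdc6, Cdt1, Mcm3, Mcm5, Mcm6, Mcm7, Gins3, Pola1, Pole2, Pold1, Pold3, Rfc3 and Lig1. The word CCAAT, on either strand, lay in windows of 21 of the 33 genes (63.6%) and of 41.1% of all genes. A match describes the letters of a window and does not show that a factor bound there.

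Promoters of 6 genes are printed, each 5′ to 3′ in the direction of its gene, with the E2F words in capitals: genes with a word that fell at passage 8 (Orc1, Mcm5, Rfc3), picked with their values known, one with 3 words that did not pass the test there (Mcm6), and the genes with the highest and lowest fold change between the arms (Pold2 and Fen1), whose windows held none of the 4 words. Orc1 lies at chr4:108579204-108579503 on the plus strand, Mcm5 at chr8:75109259-75109558 on the plus strand, Mcm6 at chr1:128359656-128359955 on the minus strand, Rfc3 at chr5:151651159-151651458 on the minus strand, Pold2 at chr11:5878207-5878506 on the minus strand and Fen1 at chr19:10203872-10204171 on the minus strand.
Orc1: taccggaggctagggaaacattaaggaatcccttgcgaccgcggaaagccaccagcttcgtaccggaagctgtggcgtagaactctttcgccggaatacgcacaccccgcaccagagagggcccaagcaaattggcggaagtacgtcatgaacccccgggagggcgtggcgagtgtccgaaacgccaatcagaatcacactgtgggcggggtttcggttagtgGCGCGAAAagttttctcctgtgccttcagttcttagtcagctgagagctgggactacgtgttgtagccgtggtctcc
Mcm5: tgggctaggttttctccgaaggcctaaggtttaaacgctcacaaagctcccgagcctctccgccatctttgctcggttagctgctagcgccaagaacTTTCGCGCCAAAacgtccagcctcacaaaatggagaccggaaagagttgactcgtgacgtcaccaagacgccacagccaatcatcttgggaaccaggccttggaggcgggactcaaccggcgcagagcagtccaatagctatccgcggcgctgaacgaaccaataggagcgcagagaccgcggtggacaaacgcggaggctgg
Mcm6: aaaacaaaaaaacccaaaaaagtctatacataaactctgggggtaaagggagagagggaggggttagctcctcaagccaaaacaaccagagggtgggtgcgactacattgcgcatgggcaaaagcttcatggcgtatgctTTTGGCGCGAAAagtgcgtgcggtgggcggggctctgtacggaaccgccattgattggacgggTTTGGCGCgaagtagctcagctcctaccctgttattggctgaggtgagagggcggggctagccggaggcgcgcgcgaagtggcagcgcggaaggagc
Rfc3: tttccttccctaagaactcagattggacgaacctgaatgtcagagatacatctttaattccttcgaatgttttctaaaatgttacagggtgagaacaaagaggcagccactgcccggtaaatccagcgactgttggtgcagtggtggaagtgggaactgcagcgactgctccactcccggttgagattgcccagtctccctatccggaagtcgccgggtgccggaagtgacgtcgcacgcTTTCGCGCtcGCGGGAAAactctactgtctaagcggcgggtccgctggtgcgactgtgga
Pold2: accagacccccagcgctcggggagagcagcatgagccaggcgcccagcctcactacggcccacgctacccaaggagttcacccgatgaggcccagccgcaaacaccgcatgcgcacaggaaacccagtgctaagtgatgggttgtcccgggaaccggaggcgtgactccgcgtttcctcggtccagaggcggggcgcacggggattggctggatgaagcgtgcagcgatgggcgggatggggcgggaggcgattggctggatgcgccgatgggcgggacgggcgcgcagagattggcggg
Fen1: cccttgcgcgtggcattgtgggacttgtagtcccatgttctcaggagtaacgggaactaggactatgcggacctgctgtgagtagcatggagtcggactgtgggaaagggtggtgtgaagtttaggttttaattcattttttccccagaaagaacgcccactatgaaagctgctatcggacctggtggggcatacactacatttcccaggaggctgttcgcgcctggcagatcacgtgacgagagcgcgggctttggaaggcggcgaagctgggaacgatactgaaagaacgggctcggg
In Mcm5 the capitals hold 2 words that overlap on opposite strands, and in Mcm6 the first stretch holds 2 and the second 1. Pold2 and Fen1 each had a second window, which also held none.

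Levels per gene length (TPM) placed the sliding clamp and the helicase subunits among the highest. The library range of Rpa1, given below, took in the Mcm4 median in NrESC and lay above it in ESC. Pcna, the clamp, had a median of 494 TPM in NrESC libraries (377 to 559) and 535 TPM in ESC libraries (478 to 572). The 6 subunits of the MCM2-7 ring had medians of 238 TPM (Mcm4) to 427 TPM (Mcm7) in NrESC and 253 TPM (Mcm4) to 460 TPM (Mcm2) in ESC. The 6 ORC genes were further apart. Orc4 and Orc3 were lowest, with medians of 19.3 and 21.5 TPM in NrESC and 20.6 and 20.7 TPM in ESC, and their library ranges overlapped each other in both arms. Orc6 was highest, with a median of 96.3 TPM in NrESC and 113.9 TPM in ESC. Gins3, one of the 4 subunits of GINS, had a median of 22.2 TPM in NrESC and 24.9 TPM in ESC, while its partner Gins2 had 170.2 TPM in NrESC and 158 TPM in ESC.

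**Figure D1:**
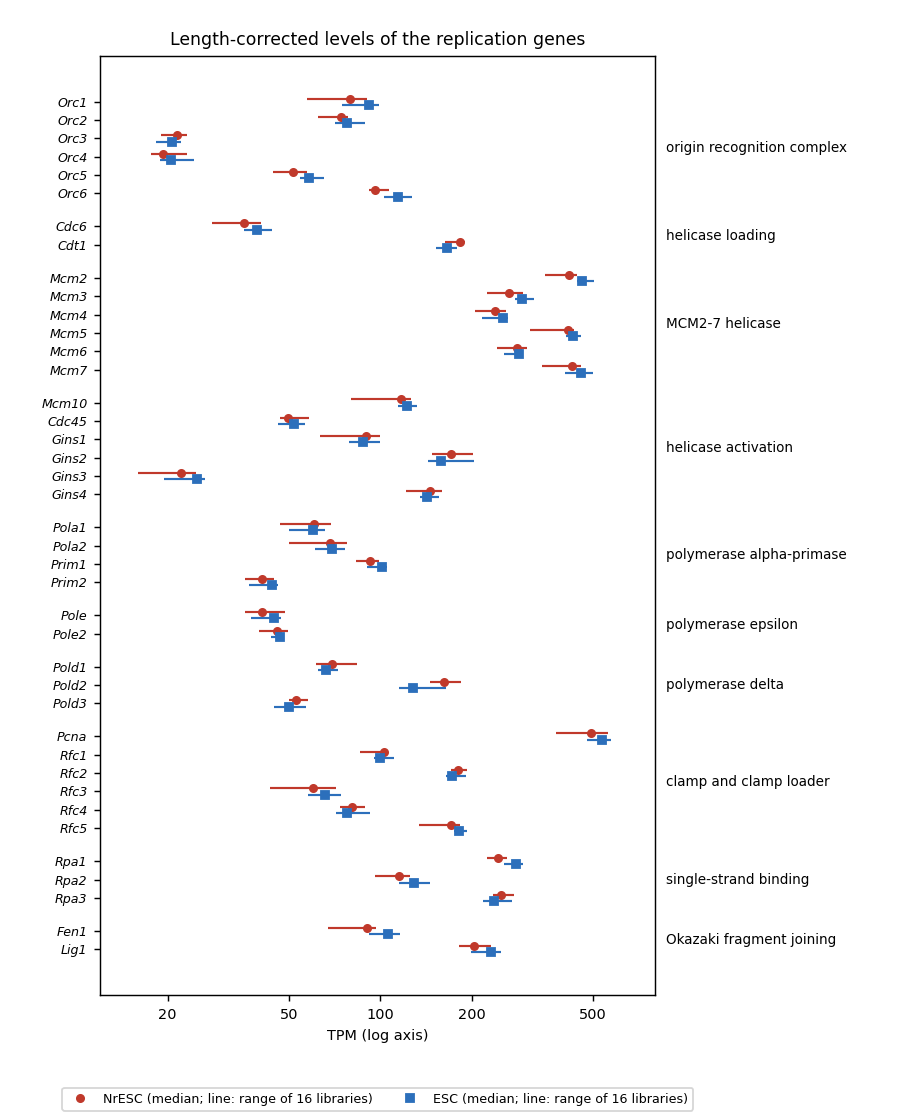
Level of each replication gene in TPM on a log axis, with the median of the 16 libraries of an arm as a point (NrESC red circles, ESC blue squares) and the range as a line. Pcna, the MCM2-7 genes and Rpa1 lie among the highest, and Orc3, Orc4 and Gins3 lowest. In TPM the ranges of the arms overlap for all genes but Mcm2, whose ranges overlap in CPM. The share of all genes without overlap in TPM was not computed.

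Summed over the whole complex, MCM2-7 transcripts came to 2003 ± 133 TPM in NrESC and 2174 ± 73.9 TPM in ESC (SD over 8 passage means). The ORC genes summed to 339.6 ± 14.5 TPM in NrESC and 383 ± 16.99 TPM in ESC. The polymerase delta genes went the other way, at 287 ± 18.6 TPM in NrESC and 249 ± 18.2 TPM in ESC. All 40 genes together took 7878 ± 379 CPM in NrESC and 8310 ± 271 CPM in ESC (SD over 8 passages). CPM is relative to the library's total over the genes tested, scaled by TMM. Of that scaled total the 40 genes were 0.788% in NrESC and 0.831% in ESC. The lowest sums of all, 6997 and 7067 CPM, were those of NrESC at passage 8, and the other 14 NrESC libraries had 7668 to 8244 CPM.

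In the mean of the 8 passages most of the replication genes that passed the test were lower in NrESC, by small amounts. Of the 40 genes, 17 were lower in NrESC and 5 higher, at an adjusted p below 0.05 in edgeR's quasi-likelihood test with Benjamini-Hochberg adjustment over all 15036 genes tested. In the same test 27.2% of all genes were lower and 28.3% higher, 55.5% in all. The median log2 fold change of the 40 was -0.08, and that of all genes tested was -0.00076. Single genes ran from -0.26 (Fen1) to 0.34 (Pold2). The unit of this test was the passage: the 2 libraries of a group were summed and the arms compared in 8 passage pairs. Without passage 8, 17 genes were lower and 4 higher. The count of higher genes was 3 without replicate 2 or without passage 4, 12 or 14. Lower calls were lost as well: those of Orc2, Gins3, Prim2 and Rfc5 both without passage 6 and without passage 10. In each of these settings 16 of the 40 genes were called in either direction. Markers of other cell types differed between the same arms. Trophectoderm markers summed to 102 to 153 TPM in NrESC and 69.2 to 104.6 TPM in ESC; of the 6 tested, Krt8 (0.97) and Tfap2c (0.16) were higher and Cdx2 (-1.34) and Gata3 (-1.82) lower. Neuroectoderm markers had a median sum of 87.2 TPM in NrESC (60.4 to 103.8) and 123 TPM in ESC (73.1 to 136.6); Sox1 (0.52) and Zfp521 (0.63) were higher, and Nes (-0.64), Tubb3 (-0.47) and Pax6 lower. Cdx2, Gata3, Zfp521 and Pax6 were low, with an average log2 CPM of 0.42, 0.37, -0.35 and -1.24. Krt8, Tfap2c, Nes and Tubb3 had 5.73, 5.45, 5.77 and 6.15, and Sox1 3.42. The part of these markers in the fold changes between the arms was not tested.

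**Figure D2:**
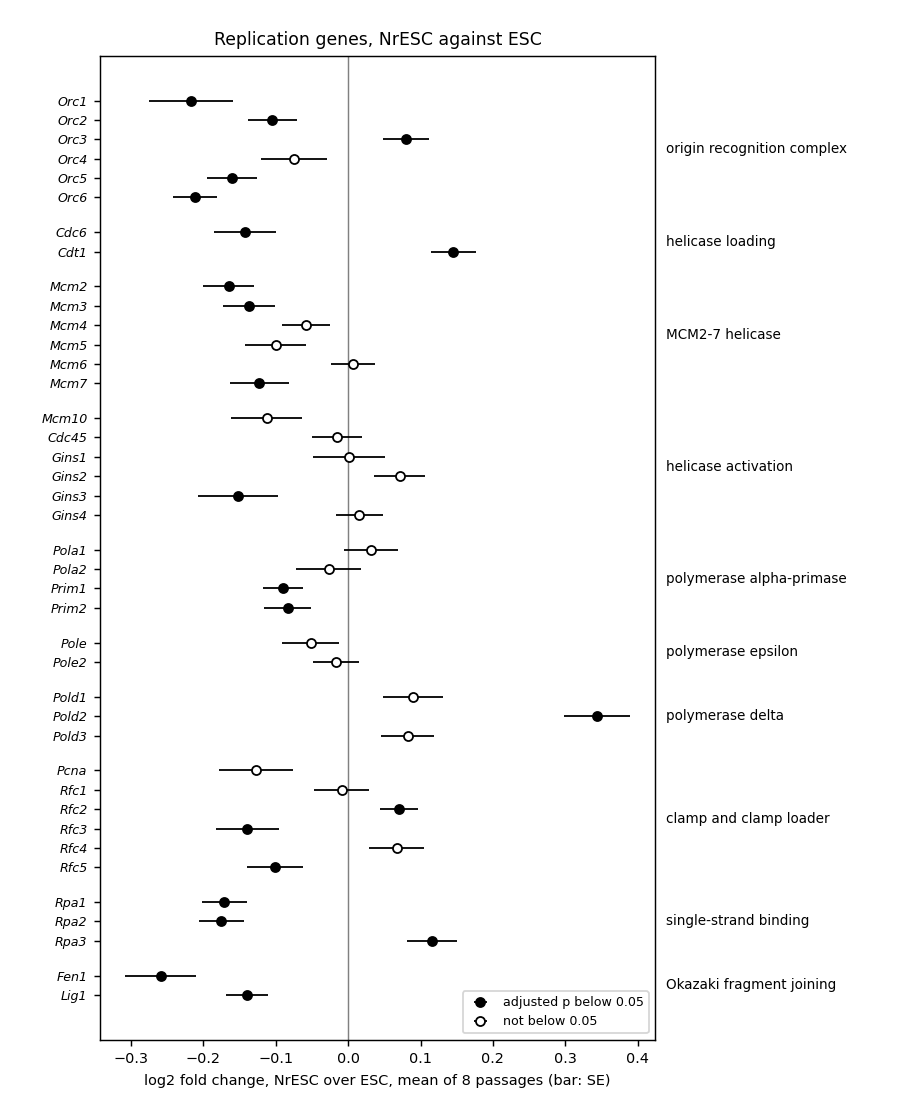
Log2 fold change of each replication gene, NrESC over ESC, in the mean of 8 passages, with the standard error as a bar, grouped by role. Filled points had an adjusted p below 0.05; 17 of them lie left of 0 and 5 right of it, with Fen1 at -0.26 and Pold2 at 0.34 at the ends.

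Of the 6 ORC genes, 4 fell in NrESC. Orc1, the largest subunit and an ATPase, had 97.5, 134 and 149.6 CPM as lowest, median and highest values in NrESC libraries, against 132, 152 and 161 CPM in ESC libraries. It was lower in NrESC at 7 of 8 passages (log2 fold change -0.22, SE 0.06, edgeR adjusted p = 0.0075). Orc6, the smallest subunit, had 78.4, 82.9 and 88.8 CPM in NrESC and 90.8, 94.7 and 103 CPM in ESC. In CPM its libraries did not overlap between the arms, while in TPM they did (91.9 to 106.8 TPM in NrESC and 102.8 to 127 TPM in ESC), and it was lower at 8 of 8 passages, each with an adjusted p below 0.05 (log2 fold change -0.21, SE 0.03, edgeR adjusted p = 0.00015). Rpa1 was the other of the 40 genes with no overlap in CPM; among all genes tested, NrESC libraries were all lower for 1.32% and all higher for 1.66%. Orc5 was lower by the mean of passages (-0.16, SE 0.03), as was Orc2 (-0.10, SE 0.03), whose call was lost without passage 2, 6 or 10. Orc3 was the subunit with the highest fold change (0.08, SE 0.03, edgeR adjusted p = 0.049), with 72.2, 79.6 and 85.5 CPM in NrESC and 69.8, 75.4 and 82.4 CPM in ESC. That call held in 4 of 16 other settings. Orc4 did not pass the test (-0.07, SE 0.05).

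The 2 helicase loaders moved in opposite directions. Cdc6, an ATPase that recruits the MCM ring to ORC, had 74.6, 97.0 and 104 CPM in NrESC and 98.9, 103.9 and 116 CPM in ESC. It was lower in NrESC at 8 of 8 passages (log2 fold change -0.14, SE 0.04, edgeR adjusted p = 0.014). Cdt1, which carries the MCM ring to the origin and is blocked by geminin, had 195, 217 and 231 CPM in NrESC and 179.5, 193 and 218 CPM in ESC. The ranges overlapped, yet Cdt1 was higher in NrESC at 8 of 8 passages (log2 fold change 0.14, SE 0.03, edgeR adjusted p = 0.0022). Both calls held in all 16 other settings.

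Within the MCM2-7 ring, whose subunits work in equal proportion, 3 genes fell and 3 did not pass the test. Mcm2, which also binds histones, had 666, 798 and 838 CPM in NrESC and 819, 883 and 944 CPM in ESC. It was lower at 8 of 8 passages (log2 fold change -0.17, SE 0.04, edgeR adjusted p = 0.0022). Mcm3 fell by 0.14 (SE 0.04), also at 8 of 8 passages, and Mcm7 fell by 0.12 (SE 0.04) on the log2 scale. The Mcm7 call was lost without passage 10 or 12. Mcm6 gave the highest value of the ring and did not pass the test (0.01, SE 0.03, edgeR adjusted p = 0.87). It had 417, 474 and 496 CPM in NrESC and 439, 456 and 491 CPM in ESC, and it was higher at 5 of 8 passages. At a single passage it was called lower in NrESC at passages 2 and 4 and higher at passages 6 and 14, with log2 fold changes from -0.11 to 0.10. Mcm4 (-0.06, SE 0.03) and Mcm5 (-0.10, SE 0.04, edgeR adjusted p = 0.060) did not pass either.

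Of the 6 genes that activate the ring, 1 passed the test. Gins3 had 21.2, 29.1 and 32.2 CPM in NrESC and 26.9, 32.2 and 35.1 CPM in ESC, and was lower at 7 of 8 passages (log2 fold change -0.15, SE 0.06, edgeR adjusted p = 0.034). This call held in 11 of 16 other settings. Gins2 had the highest value of the 6 (0.07, SE 0.03) with an edgeR adjusted p of 0.10, in libraries of 69.8, 83.4 and 102 CPM in NrESC and 67.4, 74.3 and 103.6 CPM in ESC. Mcm10, a scaffold needed for helicase activation, reached -0.11 (SE 0.05, edgeR adjusted p = 0.067). Cdc45, Gins1 and Gins4 lay between -0.02 and 0.02.

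Polymerase alpha starts new strands from primers made by primase. Prim1, the catalytic primase subunit, had 68.3, 73.1 and 78.1 CPM in NrESC and 72.6, 77.5 and 85.7 CPM in ESC, and was lower at 8 of 8 passages (log2 fold change -0.09, SE 0.03, edgeR adjusted p = 0.015), a call lost without passage 6. The larger primase subunit Prim2 was also lower (-0.08, SE 0.03, edgeR adjusted p = 0.046), in 7 of 16 other settings as well. Pola1, the catalytic subunit of polymerase alpha, did not pass the test (0.03, SE 0.04), with 152, 191 and 209.8 CPM in NrESC and 163, 183 and 195 CPM in ESC. Nor did Pola2 (-0.03, SE 0.04). For polymerase epsilon, which copies the leading strand, neither Pole (-0.05, SE 0.04) nor Pole2 (-0.02, SE 0.03) passed.

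The polymerase delta genes, whose enzyme copies the lagging strand, were all on the positive side, and 1 of the 3 passed the test. Pold2, the subunit that holds the catalytic subunit to its partners, had 119, 136 and 158 CPM in NrESC and 94.0, 105 and 144 CPM in ESC. It was higher at 8 of 8 passages, each with an adjusted p below 0.05 (log2 fold change 0.34, SE 0.05, edgeR adjusted p = 0.00010), and was the only one of the 40 genes called higher at every passage. Pold3, a subunit that binds PCNA, had the lowest value of the 3 (0.08, SE 0.04, edgeR adjusted p = 0.075), with 84.6, 89.7 and 96.8 CPM in NrESC and 77.1, 82.3 and 101 CPM in ESC. The catalytic subunit Pold1 gave 0.09 (SE 0.04, edgeR adjusted p = 0.086).

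The clamp and its loader were mixed. Rfc3, a small subunit of the loader, had 25.9, 35.5 and 43.7 CPM in NrESC and 33.3, 38.5 and 44.99 CPM in ESC, and was lower at 7 of 8 passages (log2 fold change -0.14, SE 0.04, edgeR adjusted p = 0.017). That call was lost without replicate 2. Rfc5 was lower too (-0.10, SE 0.04), and that call held in 10 of 16 other settings. Rfc2 was higher (0.07, SE 0.03, edgeR adjusted p = 0.042), with 133, 139.8 and 157 CPM in NrESC and 125, 131 and 155 CPM in ESC, but held in 7 of 16. The large subunit Rfc1 (-0.01, SE 0.04) and Rfc4 (0.07, SE 0.04) did not pass. Pcna itself reached -0.13 (SE 0.05) and missed the threshold by little, with an edgeR adjusted p of 0.051; it was called lower in 8 of 16 other settings.

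RPA coats single-stranded DNA as a trimer. Its 2 larger subunits fell and the smallest rose. Rpa1 had 385, 421 and 431 CPM in NrESC and 446, 467 and 514 CPM in ESC, with no overlap between the arms in CPM and an overlap in TPM, with 225 to 261 TPM in NrESC and 255 to 295 TPM in ESC (log2 fold change -0.17, SE 0.03, edgeR adjusted p = 0.00071). Rpa2 had 90.4, 106.7 and 121 CPM in NrESC and 104.6, 122 and 134 CPM in ESC (-0.18, SE 0.03, edgeR adjusted p = 0.00067). Rpa3 had 55.5, 61.1 and 67.3 CPM in NrESC and 51.3, 55.8 and 66.5 CPM in ESC (0.12, SE 0.03, edgeR adjusted p = 0.014). Rpa1 and Rpa2 were lower, and Rpa3 higher, at 8 of 8 passages, and the 3 calls held in all 16 other settings.

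The enzymes that finish Okazaki fragments both fell. Fen1, the nuclease that removes the displaced flap, had 83.3, 108 and 123 CPM in NrESC and 107, 129 and 141 CPM in ESC. It gave the lowest fold change of the 40 genes and was lower at 8 of 8 passages (log2 fold change -0.26, SE 0.05, edgeR adjusted p = 0.00093). Lig1, the ligase that seals the nicks, had 317, 352 and 418 CPM in NrESC and 355, 396 and 456 CPM in ESC (-0.14, SE 0.03, edgeR adjusted p = 0.0017), also lower at 8 of 8 passages. In all, 9 of the 40 genes were lower and 3 higher in NrESC at 8 of 8 passages, whatever their p at each, against 18.0% and 20.1% of all genes tested. Of the 22 called genes, 13 were called in each of the 16 other settings: Orc1, Orc5, Orc6, Cdc6, Cdt1, Mcm2, Mcm3, Pold2, Rpa1, Rpa2, Rpa3, Fen1 and Lig1.

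The size of the difference depended on the passage. An F test over the 8 passages (edgeR's quasi-likelihood test) called 37 of the 40 genes, against 69.4% of all genes tested, and the 3 exceptions were Prim1, Pole2 and Rfc2. Without passage 8 it called 31 of the 40. The 69.4% belongs to the fit with all 8 passages, and the share of all genes without passage 8 is not given here. At passage 0, 21 genes were lower in NrESC and 2 higher, against 14.8% and 17.6% of all genes. At passage 2 there were 23 lower and 5 higher (23.8% and 24.7% of all genes), at passage 4 23 lower and 10 higher (26.9% and 27.4%), and at passage 6 13 lower and 6 higher (25.1% and 23.6%). At passage 8, 21 were lower and 10 higher (34.6% and 35.2%), at passage 10 24 lower and 6 higher (28.5% and 27.0%), and at passage 12 14 lower and 8 higher (24.0% and 23.1%). Passage 14 was the one at which more genes were higher than lower, with 8 lower and 10 higher (21.3% and 19.7%). The median log2 fold change of the 40 genes was lowest at passage 2 (-0.11), lay between -0.10 and -0.09 at passages 0, 4, 8 and 10, and was -0.03 at passage 6, -0.02 at passage 12 and 0.01 at passage 14.

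With 2 libraries a group, some of these counts rested on 1 library. The 5 higher genes of passage 2 became 3 without NrESC replicate 2 or without ESC replicate 2. The 8 higher genes of passage 12 became 5 without NrESC replicate 2 or without ESC replicate 1. At passage 14 the 10 higher genes became 6 without any one of the 4 libraries, and the 8 lower ones became 5 without NrESC replicate 2 or ESC replicate 1.

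**Figure D3:**
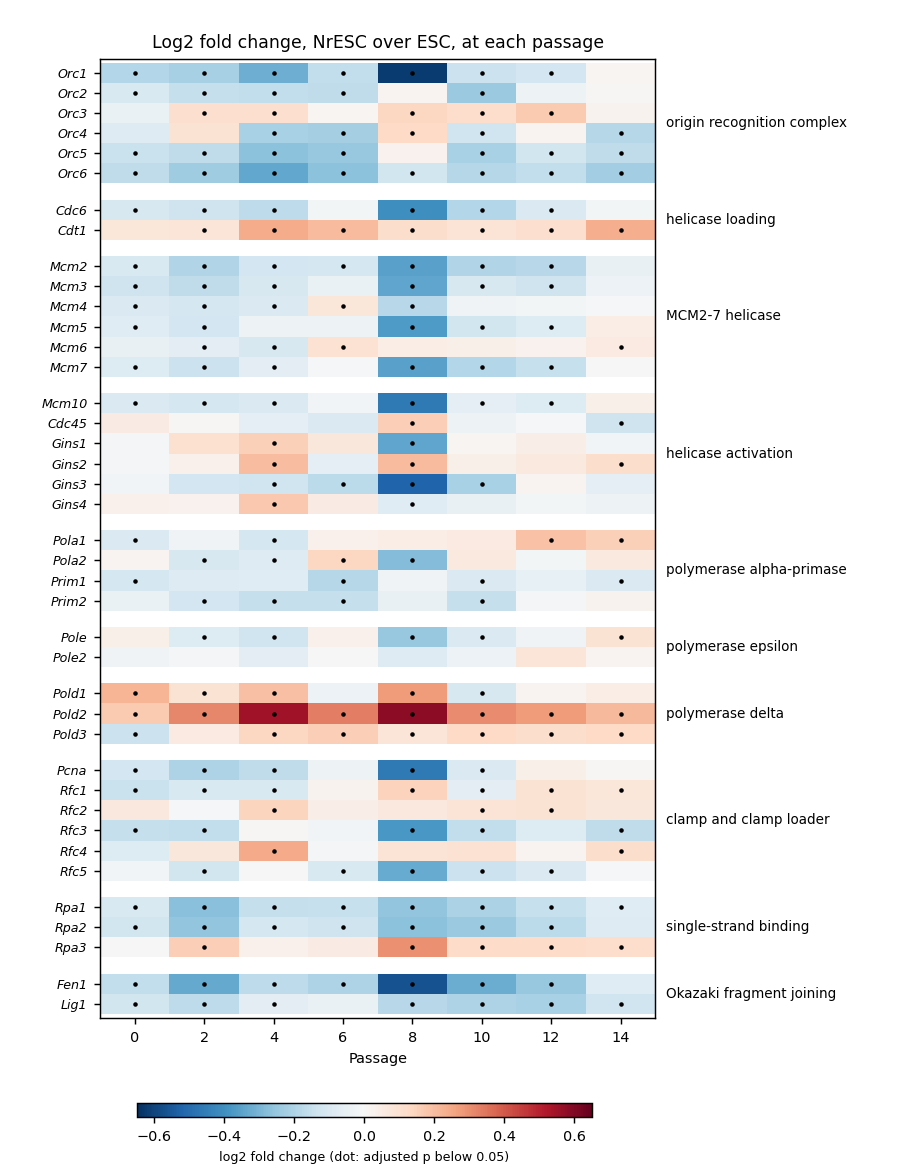
Log2 fold change, NrESC over ESC, of each replication gene (down the page, by role) at each passage (across), blue where lower and red where higher in NrESC; a dot marks an adjusted p below 0.05. Pold2 is red at all 8 passages, Orc6 and Rpa1 blue at all 8, and the deepest blue lies at passage 8 (Orc1, -0.62).

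Passage 8 carried the widest range of differences. Orc1 had 97.5 and 100.4 CPM in the NrESC libraries of passage 8 and 155 and 150.5 CPM in the ESC libraries (log2 fold change -0.62, SE 0.03). Fen1 gave -0.57 (SE 0.04), Gins3 -0.52 (SE 0.06), Pcna -0.47 (SE 0.03), Mcm10 -0.46 (SE 0.03) and Cdc6 -0.40 (SE 0.03). On the other side, Pold2 had 149 and 154 CPM in NrESC and 98.8 and 104 CPM in ESC (0.58, SE 0.04), followed by Rpa3 (0.30, SE 0.04) and Pold1 (0.28, SE 0.04). All 9 had an edgeR adjusted p of 1.3e-07 or less. Mcm6 (0.05, SE 0.02) was the one MCM2-7 gene that did not pass at passage 8, where the 5 others were lower, with log2 fold changes of -0.18 (Mcm4) to -0.37 (Mcm5).

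**Figure D4:**
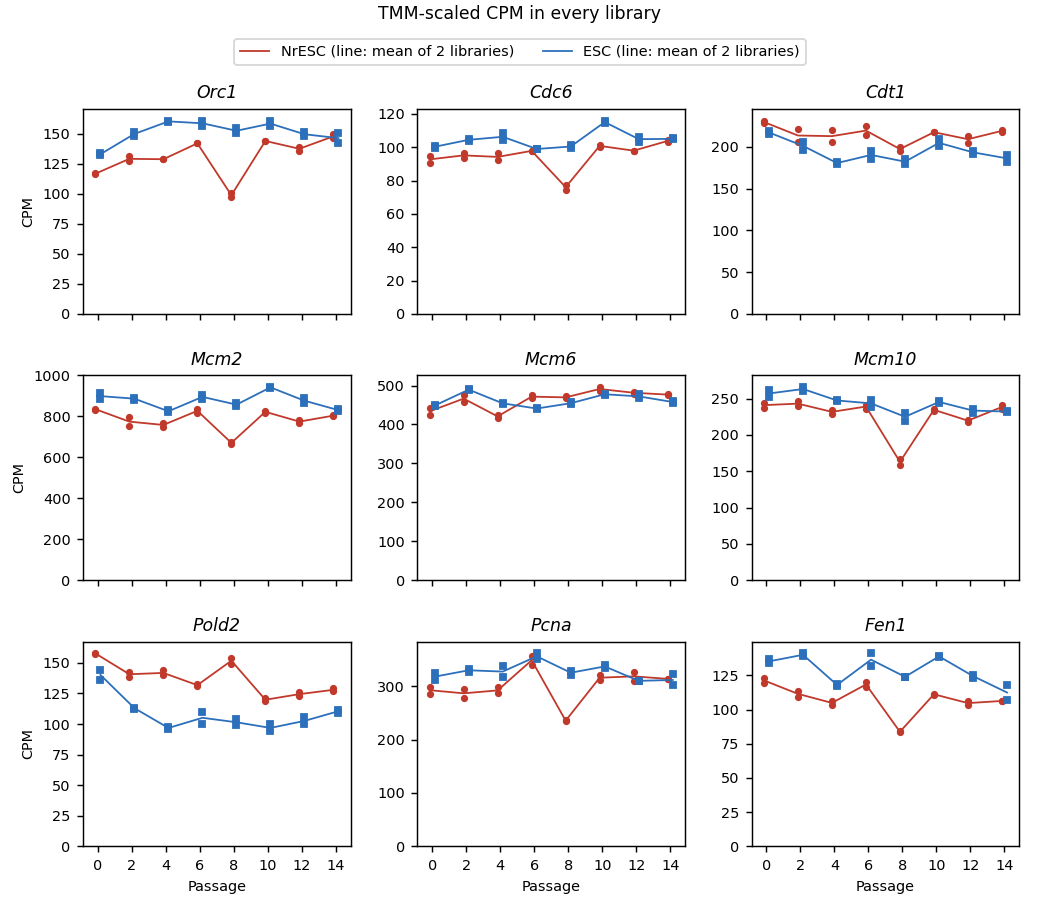
TMM-scaled CPM of 9 replication genes in every library by passage (NrESC red circles, ESC blue squares; lines join the means of 2 libraries). Orc1, Cdc6, Mcm2, Mcm10, Pcna and Fen1 drop in NrESC at passage 8 and return at passage 10, Pold2 stays higher in NrESC throughout, and the Mcm6 ranges of the arms overlap, with NrESC called lower at 2 passages and higher at 2.

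To separate this from the difference between the arms, passage 8 was set against the mean of passages 6 and 10 within each arm, a comparison chosen because these NrESC libraries were known to stand apart. In NrESC, 23 of the 40 genes were lower at passage 8 than at its neighbours and 7 higher, against 32.8% and 36.9% of all genes tested (edgeR's quasi-likelihood test). The median of the 40 was -0.14. The lowest were Rfc3 (-0.56, SE 0.05), Mcm10 (-0.54, SE 0.03) and Orc1 (-0.53, SE 0.03), and the highest Pold1, Orc4 and Pold2 (each 0.27, with SE 0.03, 0.05 and 0.03). The 40 genes summed to 8012 CPM in ESC at passage 8 and to 8367 and 8601 CPM at passages 6 and 10. At passages 4, 12 and 14 the ESC sums were 8072, 8177 and 8027 CPM, and at passages 0 and 2 8608 and 8616 CPM. In ESC, 21 genes were lower at passage 8 than at its neighbours (22.3% of all genes) and none higher (22.4% of all genes). The median of these ESC steps was -0.08, with a range from -0.27 (Rfc3) to 0.08 (Orc3). At an unadjusted p below 0.05, 1 of the 40 was higher in ESC (Orc3), and DESeq2 called 0 higher; edgeR called 1 without replicate 2 of ESC at passage 6.

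The 2 steps were then compared with each other. The step was lower in NrESC than in ESC for 17 of the 40 genes and higher for 10, against 25.2% and 24.4% of all genes tested. Of the MCM2-7 genes, 5 of 6 had a lower step in NrESC, and Mcm6 did not pass (-0.02, SE 0.03). Rfc3 had 25.9 and 26.1 CPM in NrESC at passage 8, with 35.0 to 43.7 CPM at passages 6 and 10, and in ESC 34.3 and 33.3 CPM at passage 8, with 38.7 to 42.5 CPM at the neighbours. Mcm10 had 159 and 167 CPM in NrESC at passage 8, with 234 to 242 CPM at the neighbours, and in ESC 230.5 and 219.7 CPM, with 239 to 248 CPM. Orc4, by contrast, had 48.1 and 47.2 CPM in NrESC at passage 8, with 38.7 to 40.5 CPM at the neighbours, and in ESC 45.4 and 41.8 CPM, with 42.6 to 47.3 CPM. The NrESC libraries of passage 8 thus lay outside the range of their neighbours for these 3 genes, which were picked from the extremes of the NrESC step. Both ESC libraries of passage 8 also lay outside that of theirs for Rfc3 and Mcm10. Among the 8 passages, NrESC had its lowest group mean at passage 8 for 24 of the 40 genes and for 30.3% of all genes tested. In ESC passage 8 was the lowest for 7 of the 40 and for 10.4% of all genes.

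**Figure D5:**
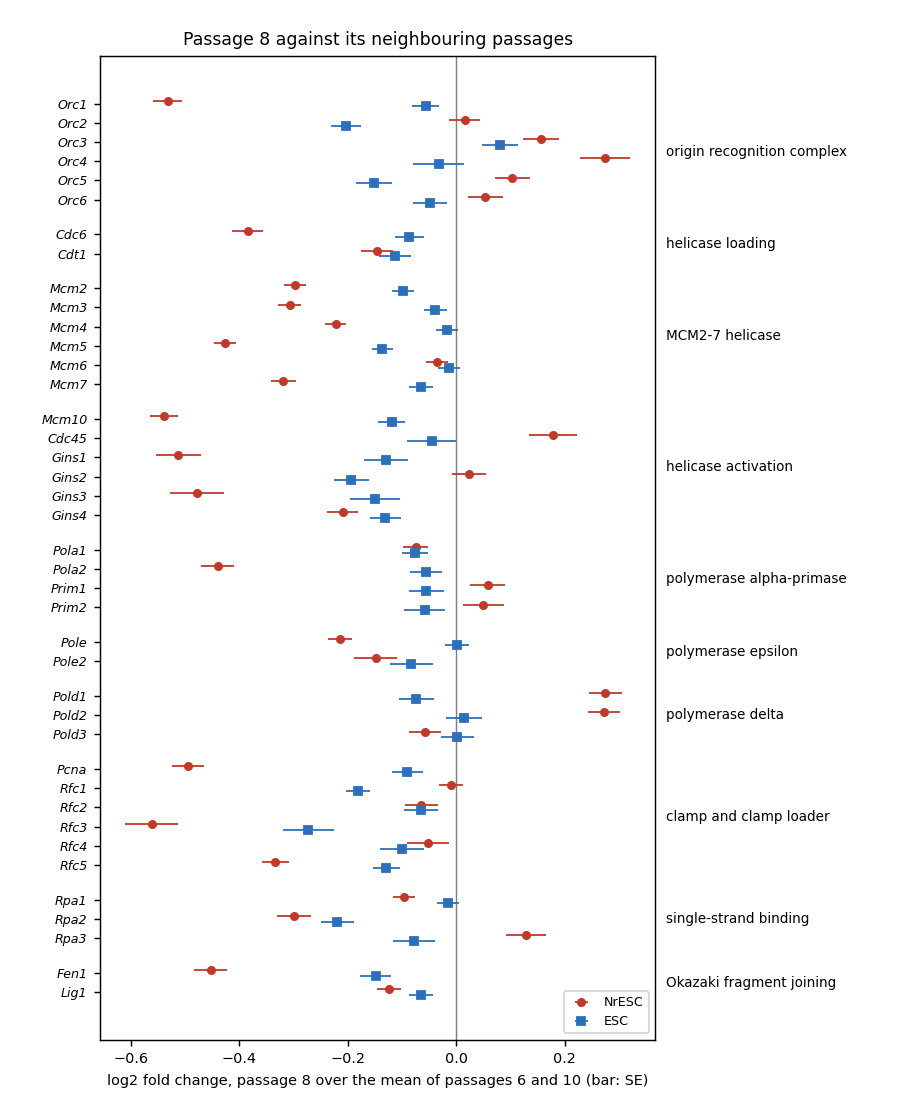
Log2 fold change of each replication gene at passage 8 over the mean of passages 6 and 10, within NrESC (red circles) and within ESC (blue squares), with standard errors as bars. In NrESC 23 genes were lower and 7 higher, with Orc1, Mcm10 and Rfc3 at about -0.5, while ESC values lie between -0.27 and 0.08.

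Other measures of the same libraries moved with passage 8. Ribosomal protein genes took 8.20% and 8.25% of the counts in its 2 NrESC libraries, against 6.96% to 7.81% in the other 14 NrESC libraries and 6.73% to 7.72% in ESC libraries. Of the embryonic stem cell markers, 8 of 10 were lower and 2 higher in NrESC at passage 8 than at its neighbours, although their summed level, at 12342 and 12425 TPM, lay within the range of the other NrESC libraries. Primitive endoderm markers summed to 224 and 229 TPM, against 146 to 199.9 TPM in the other NrESC libraries, and 6 of the 7 tested were higher than at the neighbouring passages. Among all genes tested 32.8% were lower and 36.9% higher in NrESC at passage 8 than at its neighbours. Fibroblast markers summed to 21.6 and 22.0 TPM, against 9.86 to 16.9 TPM. Neuroectoderm markers summed to 60.4 and 61.8 TPM, against 62.7 to 103.8 TPM. Trophectoderm markers, at 115 and 118 TPM, lay within the 102 to 153 TPM of the other NrESC libraries. The part of these in the passage 8 values was not tested.

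By E2F word the counts of called genes were as follows. In the NrESC step at passage 8, 11 of the 15 genes with a word were lower and 2 higher, and 8 of the 18 genes without one were lower and 5 higher. In the ESC step 8 of 15 with a word and 10 of 18 without one were lower. In the mean of passages 7 of 15 and 9 of 18 were lower. Between the arms at passage 8, 8 of 15 with a word and 9 of 18 without one were lower, and 4 and 5 higher. Among all genes tested 32.8% were lower and 36.9% higher in the NrESC step, and 22.3% and 22.4% in the ESC step. The shares were 27.2% and 28.3% in the mean of passages, and 34.6% and 35.2% between the arms at passage 8. No test was made of these counts. Mcm6, with 3 words in the window printed above, was unlike Orc1, Mcm5 and Rfc3, with 1, 2 and 2, in that its step at passage 8 did not pass the test (-0.04, SE 0.02, edgeR adjusted p = 0.12), while Mcm10 (-0.54, SE 0.03) and Fen1 (-0.45, SE 0.03), with none, dropped.

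Trends over passage number were weak. In NrESC, 1 of the 40 genes rose and 1 fell with passage, against 0.745% and 1.66% of all genes tested (edgeR's quasi-likelihood test on the summed libraries). Pola1 had 152 and 156 CPM at passage 0 and 201 and 201 CPM at passage 14 in NrESC, a slope of 0.025 log2 per passage (SE 0.0063, edgeR adjusted p = 0.047). Its ESC libraries had 163 and 167 CPM at passage 0 and 180.0 and 181 CPM at passage 14, a slope of 0.0043 (SE 0.0063). Gins2 fell in both arms: in NrESC it had 102 and 100.5 CPM at passage 0 and 76.9 and 75.3 CPM at passage 14, a slope of -0.032 (SE 0.0075, edgeR adjusted p = 0.038), and in ESC 103.6 and 100.4 CPM at passage 0 and 70.0 and 70.7 CPM at passage 14, a slope of -0.038 (SE 0.0075, edgeR adjusted p = 0.040). In ESC Gins2 was the only call among the 40, against 0.259% of all genes falling and 0.219% rising. Single passages decided these calls. The rise of Pola1 was lost without passage 0, 2, 4, 10, 12 or 14, the fall of Gins2 in NrESC without passage 0, 2, 6, 10 or 12, and its fall in ESC without passage 0, 2, 10, 12 or 14. No slope difference between the arms passed the test for the 40 genes in edgeR or in DESeq2; among all genes 0.0133% did, all lower in NrESC. At an unadjusted p below 0.05 there was 1, Pola1 (NrESC minus ESC 0.021, SE 0.0089). The differences ran from -0.012 (Pold1), -0.0085 (Gins4) and -0.0059 (Gins1) to 0.013 (Pold3), 0.017 (Rfc1) and 0.021 (Pola1) log2 per passage.

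Genes that work around the replication machinery were described beside it in 5 lists, in the mean of passages, in which 27.2% of all genes tested were lower and 28.3% higher. Of 14 genes that control licensing and origin firing, 7 were lower in NrESC and 1 higher. Ticrr, which brings initiation factors to origins, gave -0.51 (SE 0.09), Ccne2, a cyclin of the G1 to S transition, -0.50 (SE 0.08), and Rif1, a regulator of replication timing, -0.33 (SE 0.04), each with an edgeR adjusted p of 0.00063 or less. Of 27 fork accessory factors, 12 were lower and 3 higher. Pole4, a small subunit of polymerase epsilon, gave -0.19 (SE 0.03) and Rnaseh2b, a subunit of the nuclease that removes ribonucleotides from DNA, -0.22 (SE 0.04). Pold4, the smallest polymerase delta subunit, had 4.86, 5.63 and 10.2 CPM in NrESC and 2.55, 3.94 and 4.70 CPM in ESC (0.64, SE 0.11), so that polymerase delta had 2 subunit genes called higher.

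Deoxynucleotide supply was the list in which no gene was called higher: 6 of 11 were lower in edgeR's quasi-likelihood test. Dut, which removes dUTP, gave -0.29 (SE 0.04), and Dck, a salvage kinase, -0.28 (SE 0.06). At passage 8 all 11 were lower than at its neighbours in NrESC and 9 of 11 in ESC, where 32.8% of all genes were lower in NrESC and 22.3% in ESC. Of 26 E2F and G1-S regulators 9 were lower and 7 higher in the mean of passages, shares near those of all genes. E2f2 (0.50, SE 0.05), the D-type cyclin gene Ccnd3 (0.33, SE 0.03) and Cdkn1a, which encodes the CDK inhibitor p21 (0.43, SE 0.05), were among the higher ones. Of 20 G2 and mitosis genes 8 were lower and 3 higher, with Ttk at -0.21 (SE 0.03), Bub1 at -0.19 (SE 0.04) and Cdk1 at -0.18 (SE 0.03). At passage 8, 17 of these 20 were lower than at the neighbours and 3 higher in NrESC, and 12 were lower in ESC. Cdkn1a was higher at passage 8 in NrESC than at its neighbours (0.70, SE 0.02).

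Some of these values rest on reads that could belong to another gene. In GENCODE M21, exons of Fen1 overlap the opposite-strand gene Gm10143 over 78.8% of their bases, those of Gins2 overlap Gse1 over 67.3%, and those of Orc2 overlap Nif3l1 over 29.8%. Smaller overlaps joined Rfc2 to Lat2 (15.1%), Rfc4 to Eif4a2 (12.7%), Orc1 to Gm12743 (10.8%) and Rfc5 to Wsb2 (10.7%). Others joined Pole2 to Gm49384 (8.5%, on the same strand), Mcm7 to Ap4m1 (7.25%), Orc6 to Vps35 (6.93%), Orc4 to Acvr2a (5.98%) and Cdc45 to Ufd1 (5.96%). The strand setting of the counting is not given in the sources used here, so reads of such pairs cannot be told apart. Gm10143, Gm12743 and Gm49384 were not among the deposited gene symbols. Gse1 (-0.09), Nif3l1 (-0.16), Ap4m1 (-0.02) and Vps35 (-0.09) did not pass the test between the arms. Wsb2 (-0.30), Ufd1 (-0.27), Acvr2a (-0.18) and Eif4a2 (0.23) did. Vps35 averaged 356 CPM in NrESC and 377 CPM in ESC, above the levels of Orc6. Stretches shared word for word with other genes covered 19.1% of Pcna (Pcna-ps2), 18.1% of Mcm7 and 9.48% of Rpa3. Pcna-ps2 was not among the deposited gene symbols, so no deposited counts were assigned to it. How reads from the shared stretches were counted is not given in the sources used here.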

How the data were processed

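Polyadenylated RNA of 32 libraries was measured. Expected counts by gene symbol, with no normalization, and length-corrected TPM are the values the authors deposited. Per the submitters' processing notes the build was mm9 and the tools were RSEM, STAR, HTSeq 0.12.4, Cufflinks 2.2.1, edgeR and DESeq2; the role of each, the annotation and the strand setting are not given in the sources used here. RSEM divides reads among similar genes. The expected counts, of which 0.837% were fractional, were rounded. Low-count genes were dropped by filterByExpr, which kept 15036.

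Counts were scaled by TMM (factors 0.979 to 1.03) and tested with edgeR 4.0.16 (R 4.3.3, quasi-likelihood test, Benjamini-Hochberg adjustment over all genes of a comparison, threshold 0.05). For the mean of passages the 2 libraries of a group were summed and the arms compared with passage as a block (7 residual degrees of freedom), because libraries of a group differ less than passages do. Differences at each passage, their variation and the passage 8 steps used all 32 libraries in 16 group means (16 degrees of freedom), and slopes used the sums (12 degrees of freedom). SE is the standard error of the log2 fold change. CPM values are relative to the library's total over the genes kept by the filter, multiplied by its TMM factor. The 2 libraries of a group differed by more than sampling noise in each group (chi-square per degree of freedom 1.69 to 3.17), with a median SD of 0.0217 (log2) over the 40 genes.

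Other settings were RLE scaling, no filter, DESeq2 1.42.0, limma 3.58.1 on log2(TPM + 1), the 32 libraries as the unit, a replicate block, and leaving out each replicate or passage. The scripts were tested on simulated counts. The genes, lists and comparisons were chosen with earlier results of these data known. Values are given for the highest and lowest gene of each role, the 3 highest and 3 lowest by passage 8 step and by slope difference, and, of each surrounding list, the 3 smallest p; others are named for completeness of a role or because they stood out at passage 8. A gene that this rule also names is not reported here. Gene overlaps and shared 50-base words were taken from GENCODE M21, whose build differs, for names only.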

Additional observations from a re-analysis of the deposited data

Results flagged for a closer look

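The difference between NrESC and ESC was not the same at all passages for 37 of the 40 replication genes, by edgeR's test of its variation among passages. That test called 69.4% of all genes. The step at passage 8 differed between NrESC and ESC for 27 of the 40, by edgeR's test of the difference between the steps. Among all genes tested it was lower in NrESC for 25.2% and higher for 24.4%. Of the 3 genes with the lowest NrESC steps, the step of NrESC minus that of ESC was -0.476 for Orc1 (step -0.53 in NrESC and -0.06 in ESC), -0.420 for Mcm10 (-0.54 in NrESC and -0.12 in ESC) and -0.288 for Rfc3 (-0.56 in NrESC and -0.27 in ESC), on the log2 scale. For the 3 with the highest NrESC steps it was 0.348 for Pold1 (0.27 in NrESC and -0.07 in ESC), 0.306 for Orc4 (0.27 in NrESC and -0.03 in ESC) and 0.258 for Pold2 (0.27 in NrESC and 0.01 in ESC). The share of ribosomal protein counts and the primitive endoderm markers of the 2 NrESC libraries of passage 8 moved as well, and their part in these differences was not tested.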

How the results depend on the processing

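None of the called results changed direction. The fold change of 7 genes that did not pass the test crossed 0 in at least 1 setting (Mcm6, Cdc45, Gins1, Gins4, Pola2, Pole2 and Rfc1, between -0.05 and 0.05 in every setting), as did the passage 14 median. The median fold change of all genes stayed within -0.02 and 0.00 under each setting. In the mean of passages, the count of 17 lower genes stayed within a factor of 1.5 in all 16 settings. Calls in either direction went from 22 to 16 without passage 6 and without passage 10. The 5 higher genes became 3 with RLE scaling, 3 without the filter on low counts, 3 each without passage 4, 12 or 14, 10 with the 32 libraries as the unit and 10 with the replicate block. The samples share only a replicate number: same-numbered libraries did not deviate together (r from -0.019 to 0.062 by passage), and the fit with the block called 33 of the 40 genes, as did the same 32 libraries without it, against 22 with the sums. At passage 2 the 5 higher genes became 3 with RLE scaling, 2 with DESeq2 and 3 with the replicate block. Slopes depended most on the unit: with the 32 libraries the numbers rising and falling were 12 and 19 in NrESC and 6 and 22 in ESC, and 8 slope differences were higher and 2 lower, against 1 and 1, 0 and 1, and 0 and 0 with the sums. The 1 rising NrESC slope became 0 without the filter on low counts and without passage 0, 2, 4, 10, 12 or 14, the 1 falling NrESC slope became 0 without passage 0, 2, 6, 10 or 12, and the 1 falling ESC slope became 0 without passage 0, 2, 10, 12 or 14. The cause was not tested.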

Other observations

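The genes around the replication machinery also changed at passage 8. In NrESC, 10 of 14 licensing and origin firing genes were lower at passage 8 than at passages 6 and 10 and 3 were higher, 21 of 27 fork accessory factors were lower and 2 higher, and of 26 E2F and G1-S regulators 11 were lower and 12 higher (edgeR's quasi-likelihood test). In ESC the counts were 9 lower and 1 higher, 19 lower and 3 higher, and 9 lower and 6 higher. Among all genes tested 32.8% were lower and 36.9% higher in NrESC, and 22.3% lower and 22.4% higher in ESC. Ticrr had a step of -1.02 (SE 0.03) in NrESC, Ccne2 of -0.97 (SE 0.06), Dck of -0.56 (SE 0.04) and Dut of -0.43 (SE 0.03), and each step was lower in NrESC than in ESC by edgeR's test of the difference. Pold4 rose at passage 8 in NrESC (0.86, SE 0.09), as Pold1 and Pold2 did.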
